A study of Homo sapiens with 6 samples.

Results

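The Krüppel-like factor genes KLF2, KLF3, KLF4, KLF5, KLF6, KLF9, KLF10, KLF11, KLF13 and KLF15 were followed in HepG2 cells, a human hepatoma line, during exposure to a preparation of the plant Scutellaria baicalensis. They were taken by symbol: every probe whose gene name in the scanner files was one of these symbols, on all 6 arrays. This gave 17 probes for 10 genes, among 40895 probes and 17483 named genes kept in all. The labels abbreviate the preparation ESB without spelling the letters out. One array carried RNA of cells given ESB at 100 µg/ml for each of 1, 3, 6, 12 and 24 h, and 1 array carried RNA of control cells, for which the labels give neither a time nor a vehicle. All 6 RNAs came from the same cell line, for which the labels name no engineered allele. With 1 array in each group there is no p-value for any one time, and no later control was analysed here.

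Krüppel-like factors are transcription factors that bind GC-rich and CACCC-type sequences in promoters through zinc fingers at the end of the protein. Their other domains differ, so that some members mainly activate genes and others repress them by recruiting CtBP or SIN3 corepressors. In liver, members of the family take part in glucose and amino acid metabolism, in responses to hormones and injury, and in the control of cell growth. Several are immediate-early genes, whose short-lived transcripts change soon after a stimulus.

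Each level is a probe's log2 processed signal relative to its array, whose 75th percentile is set to 0, and each difference is a log2 level in ESB-treated cells minus that in control cells. The error beside a difference is an SD for 1 probe, taken from how far different probes of a gene disagreed, and it leaves out the spread between cultures. It was 0.37, 0.47, 0.79, 0.69 and 0.70 after 1, 3, 6, 12 and 24 h. A gene was called measured at a time when its brightest probe was well above background and unsaturated on both arrays, and a difference of at least 2-fold was counted without a test. Brightness varied between arrays, with 75th percentiles of the signal of 768 (control), 1090, 1900, 153, 420 and 1640 (ESB in order of time). On the dim 6 h array 50.6% of spots were well above background, against 70.5% on the control array, and the median difference of all measured genes was 0.34 and 0.23 after 6 and 12 h. It lay between -0.06 and 0.02 at the other times. All 9 markers of hepatocyte-derived cells examined were well above background on all 6 arrays. CDH5, an endothelial marker, and COL1A1, a fibroblast marker, were well above background on none, and 2 of 5 blood markers (CD79A and LYZ), 1 of 3 endothelial markers and 1 of 4 fibroblast markers were above it on all 6. The part of other cell types in the KLF values was not tested.

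The probes below are shown because the values rest on them, and for the genes with more than 1 probe because those probes can be compared. Each line gives the first 30 of 60 bases, and the probes of a gene stand in their order along its strand by the coordinates in the files, whose genome build is not given in the sources used here.
KLF2 A_24_P151305: agcgcccccgcgggtggcctggtgtctgag
KLF2 A_23_P119196: gagacaggtgggcatttttgggctacctgg
KLF3 A_23_P213306: ctaacaagacatttccgaaaacatactgga
KLF5 A_24_P210406: gcgattaccctggttgcacaaaagtttata
KLF5 A_23_P53891: cgttgaattgatgatgcagttttcatatat
KLF6 A_24_P69654: aggcacttccgaaagcacaccggggccaag
KLF6 A_23_P63798: ggttgggttgattgtatgttgaggatctat
KLF6 A_24_P252739: accatgccggtttgatcttccattgctcaa
KLF15 A_23_P40805: ttttttaagcaataatttatttgcctcctc
KLF15 A_24_P20327: tttagaaatgcattccttattttgtctaga
The KLF2 probes lie 2042 bases apart on chromosome 19 and hold 75% and 45% G or C over their full length. The first KLF5 probe covers 1149 bases of chromosome 13, so it crosses an intron, and lies 14118 bases upstream of the second. The first KLF6 probe likewise covers 575 bases of chromosome 10, and the other KLF6 probes start 907 and 3876 bases downstream of its start. The KLF15 probes lie 767 bases apart on chromosome 3 and hold 25% G or C in the probe that represents the gene and 41.7% in the other.

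As a family the genes were mostly lower in ESB-treated cells, first by small amounts and then by more than 2-fold for some members. At 1 h, 9 of 10 were below their control level, against 55.6% of all measured genes. None of the 10 was 2-fold lower there, against 0.663% of all measured genes, and none was 2-fold higher, against 2.23%. At 3 h, 9 of 10 were again lower, against 53.4% of all measured genes. KLF15, KLF6, KLF9 and KLF3 were at least 2-fold lower at 3 h, so 4 of 10, against 2.96% of all measured genes. No member was 2-fold higher at 3 h, against 3.24%. With the median over a gene's probes in place of 1 probe, 4 members were again 2-fold lower, 2 of them different: KLF6 was then at -0.77 and KLF15 at -0.68, while KLF2 was at -1.18 and KLF11 at -1.10 beside KLF3 and KLF9, which have a single probe. The values of KLF2 and KLF15 in that setting take in a probe that was not well above background at 3 h, so they are not measured differences.

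The 6 h array measured 7 of the 10 genes, since KLF3, KLF4 and KLF5 were not well above background on it. KLF6, KLF15 and KLF13 were at least 2-fold lower there, so 3 of 7, against 10.0% of all measured genes. KLF2 was at least 2-fold higher, so 1 of 7, against 22.9%. The lowest level well above background on the 6 h array was -3.32, and KLF2 had -4.73 in control cells. KLF2 could thus be measured at 6 h only if more than 2-fold higher, so this call was fixed by the filter. Other genes as dim in control cells enter the 22.9% in the same way. At 12 h, KLF3, KLF5 and KLF6 were at least 2-fold lower, so 3 of 10, against 7.81%, and KLF2 was at least 2-fold higher, so 1 of 10, against 13.1%. At 24 h, KLF5, KLF3 and KLF15 were at least 2-fold lower, so 3 of 10, against 9.29%, and KLF4 was at least 2-fold higher, so 1 of 10, against 7.29%.

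**Figure D1:**
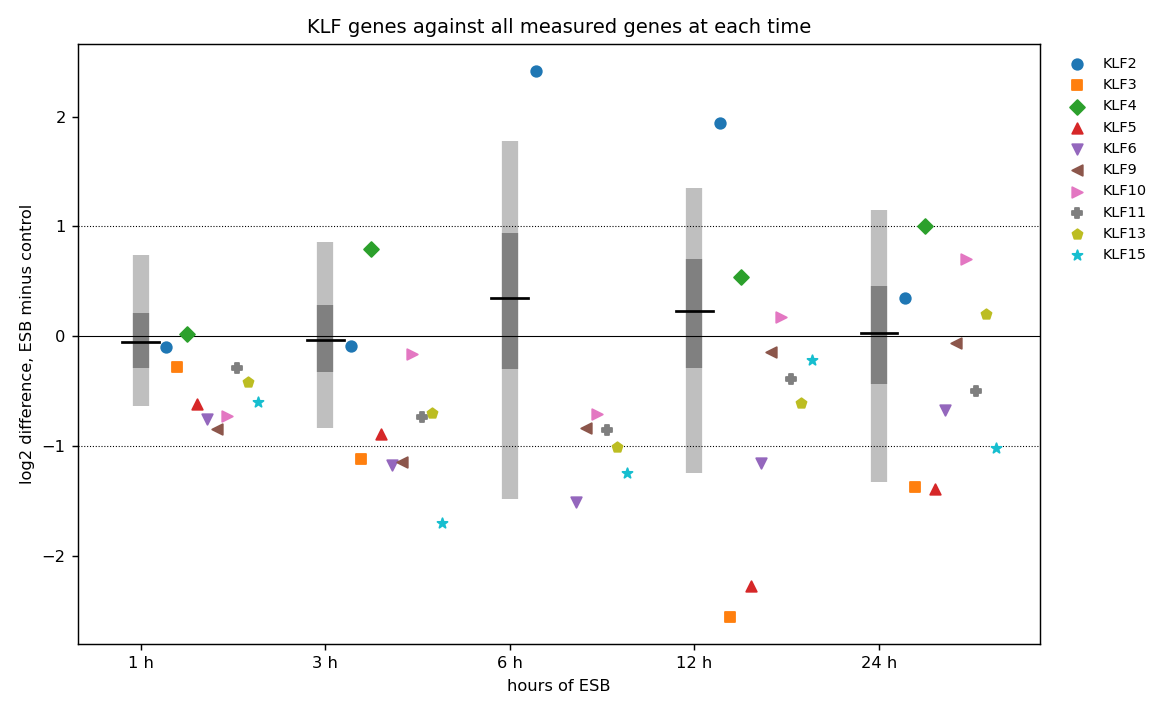
Differences of the 10 KLF genes at each time of ESB (symbols, log2 of ESB minus control) beside all measured genes (light bar, 5th to 95th percentile; dark bar, 25th to 75th; black line, median; dotted lines, 2-fold). Most KLF genes lie below the median of all genes at 1, 3 and 6 h, while KLF2 lies far above it at 6 and 12 h; KLF3, KLF4 and KLF5 have no symbol at 6 h, where they were not well above background.

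The family's median difference was -0.51, -0.82 and -0.86 after 1, 3 and 6 h (7 genes at 6 h) and -0.30 and -0.28 after 12 and 24 h. Minus the median of all measured genes at the same time, it was -0.46, -0.78, -1.20, -0.53 and -0.31. The 6 h, 12 h and 24 h counts below control were 6 of 7, against 35.4% of all measured genes, 7 of 10, against 37.8%, and 6 of 10, against 48.4%. Members below the median of all genes numbered 9 of 10 at 1 h, 9 of 10 at 3 h, 6 of 7 at 6 h, 8 of 10 at 12 h and 6 of 10 at 24 h. The displacement of the family was thus largest at 3 and 6 h and smallest at 24 h, where members lay on both sides.

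KLF6 is an activator that was first described in liver and placenta and is induced in liver injury. Its log2 levels were 4.11 in control cells and 3.36, 2.93, 2.60, 2.96 and 3.44 after 1, 3, 6, 12 and 24 h of ESB. Every treated level lay below the control level. Its difference was -0.75 ± 0.37, -1.18 ± 0.47, -1.51 ± 0.79, -1.15 ± 0.69 and -0.67 ± 0.70 after 1, 3, 6, 12 and 24 h, so the last was smaller than its error. The intron-crossing probe gave -0.42, -0.77, -2.09, -1.84 and -0.15 at these times. The probe farthest downstream gave -0.22, -1.71, -0.87 and -0.45 at 1, 3, 12 and 24 h, and at 6 h it was not well above background, which bounds it at at least 2.05-fold lower than in control cells. All 3 probes thus read lower at every time with a value, from -0.77 to -1.71 at 3 h and from -0.15 to -0.67 at 24 h.

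KLF5, an activator linked to proliferation of epithelial cells, had levels of -0.57 in control cells and -1.19, -1.47, -2.85 and -1.97 at 1, 3, 12 and 24 h of ESB. At 6 h it was not well above background, with a signal of 4.16, against 466 in control cells, which makes it at least 6.72-fold lower. Its differences were -0.62 ± 0.37, -0.89 ± 0.47, -2.28 ± 0.69 and -1.40 ± 0.70 after 1, 3, 12 and 24 h. The intron-crossing probe gave -0.02, -0.72, -1.13 and -0.96 at those times and a bound of at least 2.60-fold lower at 6 h. With normexp background correction the 12 h difference was -0.78, under 2-fold. Both KLF5 probes read lower throughout. The gap of 1.14 between them at 12 h was the widest among pairs of probes that both had a value. Pairs in which a probe gives only a bound are left out of that ranking, and some of them lie farther apart.

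KLF3, a repressor that recruits CtBP, had levels of -0.55 in control cells and -0.83, -1.67, -3.11 and -1.92 at 1, 3, 12 and 24 h of ESB. Its single probe was not well above background at 6 h, where it was at least 6.83-fold lower than in control cells. The difference was -0.28 ± 0.37, -1.12 ± 0.47, -2.56 ± 0.69 and -1.37 ± 0.70 after 1, 3, 12 and 24 h. KLF3 thus differed little from control at 1 h and was lower by more than its error at each later time with a value. With normexp the 12 h difference was -1.06. Between 1 and 3 h of ESB it differed by -0.84 ± 0.30 (3 h minus 1 h), and between 12 and 24 h by 1.18 ± 0.74 (24 h minus 12 h).

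**Figure D2:**
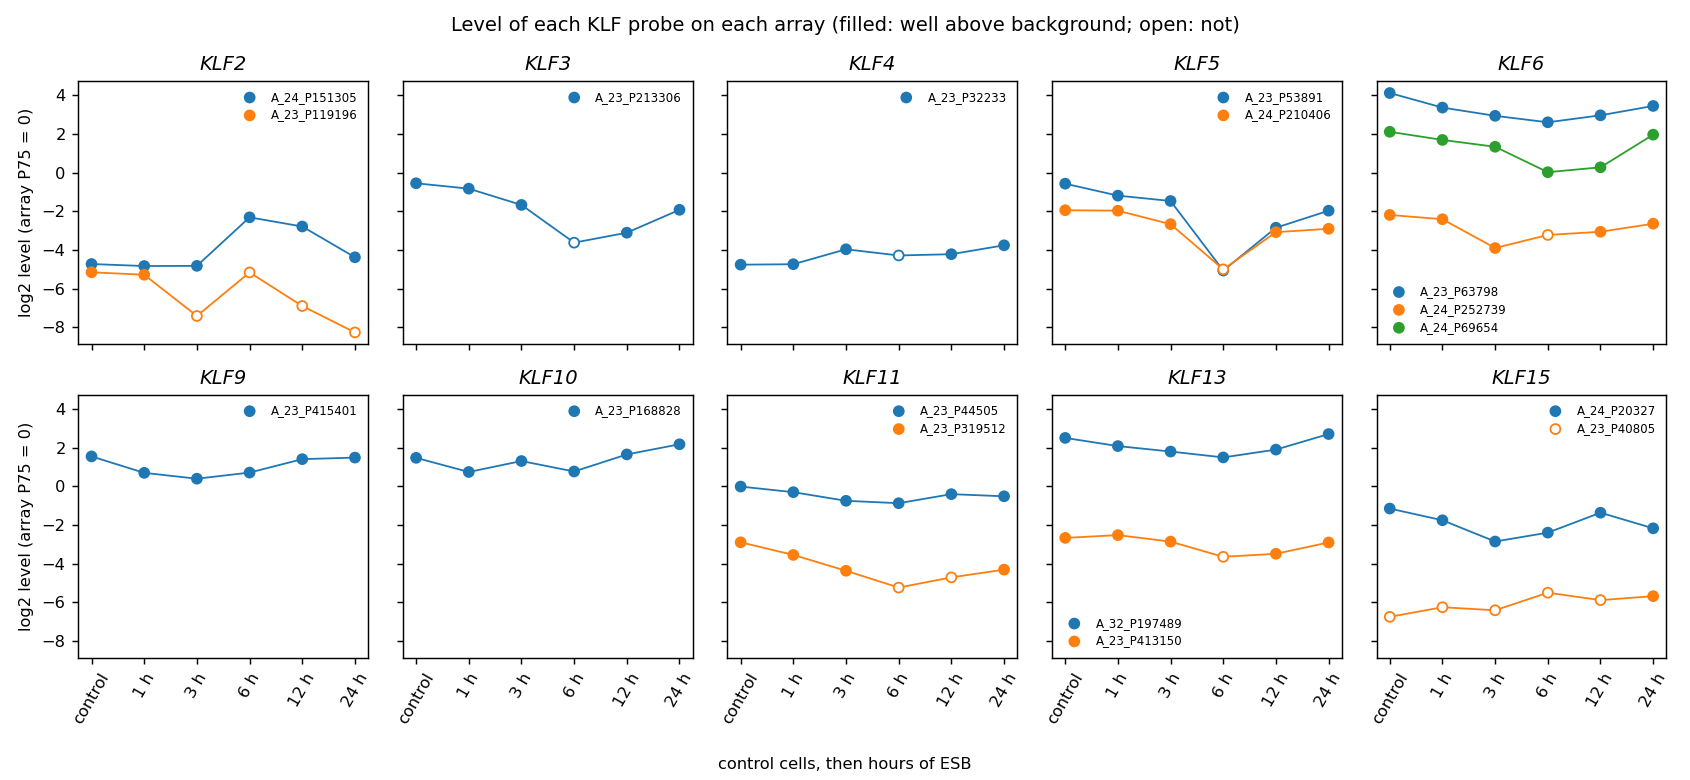
Log2 level of each of the 17 KLF probes (y axis, 0 at the 75th percentile of the array) in control cells and after 1, 3, 6, 12 and 24 h of ESB, 1 array a point; filled points were well above background and open points were not. KLF3 and KLF5 are low at 6 and 12 h, and the KLF2 probes part from each other after 1 h.

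KLF15 is an activator of gluconeogenesis and of amino acid breakdown in liver, and glucocorticoids induce it. Its levels were -1.15 in control cells and -1.76, -2.85, -2.40, -1.37 and -2.17 after 1, 3, 6, 12 and 24 h of ESB, all below control. The difference was -0.60 ± 0.37, -1.70 ± 0.47, -1.25 ± 0.79, -0.22 ± 0.69 and -1.02 ± 0.70 after 1, 3, 6, 12 and 24 h. The value at 3 h was the lowest of the family at that time, and 3 h minus 1 h gave -1.10 ± 0.30. With normexp background correction the 6 h difference was 0.60, so its direction turned. The other KLF15 probe was well above background only at 24 h, where it was at least 1.14-fold higher than in control cells, against the direction of the first probe.

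KLF9, a repressor of the SIN3-binding group that glucocorticoids and thyroid hormone induce, had levels of 1.54 in control cells and 0.69, 0.39, 0.71, 1.40 and 1.48 after 1, 3, 6, 12 and 24 h of ESB. It was low at the first 3 times and near its control level at the last 2. Its difference was -0.85 ± 0.37 at 1 h, the lowest of the family there, -1.15 ± 0.47 and -0.84 ± 0.79 after 3 and 6 h. At 12 h it was -0.14 ± 0.69 and at 24 h -0.06 ± 0.70, both within the error. The 24 h level exceeded the 3 h level by 1.09 ± 0.50.

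KLF10 and KLF11 are repressors that transforming growth factor beta induces. KLF10 had levels of 1.47 in control cells and 0.74, 1.30, 0.76, 1.65 and 2.17 after 1, 3, 6, 12 and 24 h of ESB. Its difference was -0.73 ± 0.37, -0.17 ± 0.47, -0.71 ± 0.79, 0.18 ± 0.69 and 0.70 ± 0.70 after 1, 3, 6, 12 and 24 h. Only the 1 h value of KLF10 exceeded its error by a clear margin, and 24 h minus 3 h gave 0.87 ± 0.50. KLF11 read -0.29 ± 0.37, -0.74 ± 0.47, -0.86 ± 0.79, -0.39 ± 0.69 and -0.50 ± 0.70 at the 5 times, so only the 3 h and 6 h values exceeded their error, and with normexp the 6 h value was 0.0020. Its other probe gave -0.65, -1.47 and -1.41 at 1, 3 and 24 h and bounds of at least 1.34-fold lower at 6 h and at least 3.51-fold lower at 12 h.

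KLF13, a SIN3-binding factor known for its role in T lymphocytes, had levels of 2.50 in control cells and 2.08, 1.80, 1.49, 1.89 and 2.70 after 1, 3, 6, 12 and 24 h of ESB. The difference was -0.42 ± 0.37, -0.70 ± 0.47, -1.01 ± 0.79, -0.61 ± 0.69 and 0.20 ± 0.70. It was below its control level through 12 h, at 12 h by less than the error, and above it by less than the error at 24 h. The other KLF13 probe, which spans an intron, gave 0.15, -0.19, -0.82 and -0.24 at 1, 3, 12 and 24 h, so the probes disagreed in sign at 1 and 24 h. Over the 5 genes with more than 1 measured probe, 23 of 25 comparisons of a pair of probes had the same sign, with a median gap of 0.51. Most of these comparisons came from the 3 probes of KLF6, taken in overlapping pairs, and KLF2 gave only that at 1 h. Pairs with only a bound are not counted, among them KLF2 and KLF15 at 24 h, whose probes pointed in opposite directions. The share over all genes with several probes is not given here.

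KLF2 and KLF4 are activators best known from endothelium and epithelium, and both gave signals close to background in these cells. The KLF2 probe that represents the gene had signals of 26.2 in control cells and 34.6, 60.2, 28.0, 54.2 and 70.3 after 1, 3, 6, 12 and 24 h of ESB. After scaling, its difference was -0.10 ± 0.37, -0.09 ± 0.47, 2.41 ± 0.79, 1.94 ± 0.69 and 0.35 ± 0.70 after 1, 3, 6, 12 and 24 h. The high scaled values are those of the 2 dimmest arrays, on which the unscaled KLF2 signal was not above its values at 3 and 24 h. The 88 genes measured at 6 h whose control level lay within 0.5 of that of KLF2 had a median difference of 2.01 there, and the 592 such genes at 12 h had 0.56. All 88 had control levels below -3.32, the lowest level well above background at 6 h, so only genes that were higher could be counted. The filter thus raises the 2.01, which is not a neutral reference. At 12 h the lowest level well above background was -5.04, which lies inside the window, and 592 such genes were measured, against 928 at 1 h. Genes that were lower could thus drop out at 12 h too, so the 0.56 is not a neutral reference either. Minus these medians, KLF2 was at 0.41 and 1.38 after 6 and 12 h, and both values carry that limit. The other KLF2 probe was well above background in control cells and at 1 h only, so it gives no value at 6 or 12 h. It was at -0.13 at 1 h, near the first probe, and was at least 2.25-fold lower at 3 h and at least 2.65-fold lower at 24 h than in control cells.

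KLF4, which restrains the cell cycle in epithelium, had signals of 25.6 in control cells and 36.9, 109, 20.1 and 108 at 1, 3, 12 and 24 h of ESB, and was not well above background at 6 h. Its difference was 0.02 ± 0.37, 0.80 ± 0.47, 0.54 ± 0.69 and 1.00 ± 0.70 after 1, 3, 12 and 24 h. KLF4 was the one member above control at 1 and 3 h, and at 12 h it lay 0.02 below the median of 581 genes of like control level. That median carries the limit given for KLF2 at 12 h, since 920 such genes were measured at 1 h. With normexp background correction the differences were -0.03, 1.54 and 0.21 after 3, 12 and 24 h, so KLF4 was then 2-fold higher at 12 h and no longer at 24 h.

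At 3 h the median difference of genes of like control level was 0.00 for KLF15, -0.10 for KLF6, -0.07 for KLF9 and -0.01 for KLF3, from 629 to 1680 genes each. Minus these medians, KLF15 was at -1.71, KLF6 at -1.08, KLF9 at -1.08 and KLF3 at -1.11. At 12 h genes of like level had medians of 0.08 for KLF3, 0.08 for KLF5 and 0.47 for KLF6, and at 6 h of 0.62 for KLF6 and 0.46 for KLF13. At 12 h KLF3 was at -2.64, KLF5 at -2.36 and KLF6 at -1.63 on the same basis.

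The order of the 6 levels differed between members. KLF3, KLF5, KLF6, KLF9, KLF11 and KLF15 were highest in control cells, KLF4, KLF10 and KLF13 after 24 h of ESB and KLF2 after 6 h. Where both levels were well above background, neighbours in this order mostly lay within 2 SDs of each other. The exceptions were 12 h against 24 h for KLF2 and 1 h against 3 h for KLF3.

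**Figure D3:**
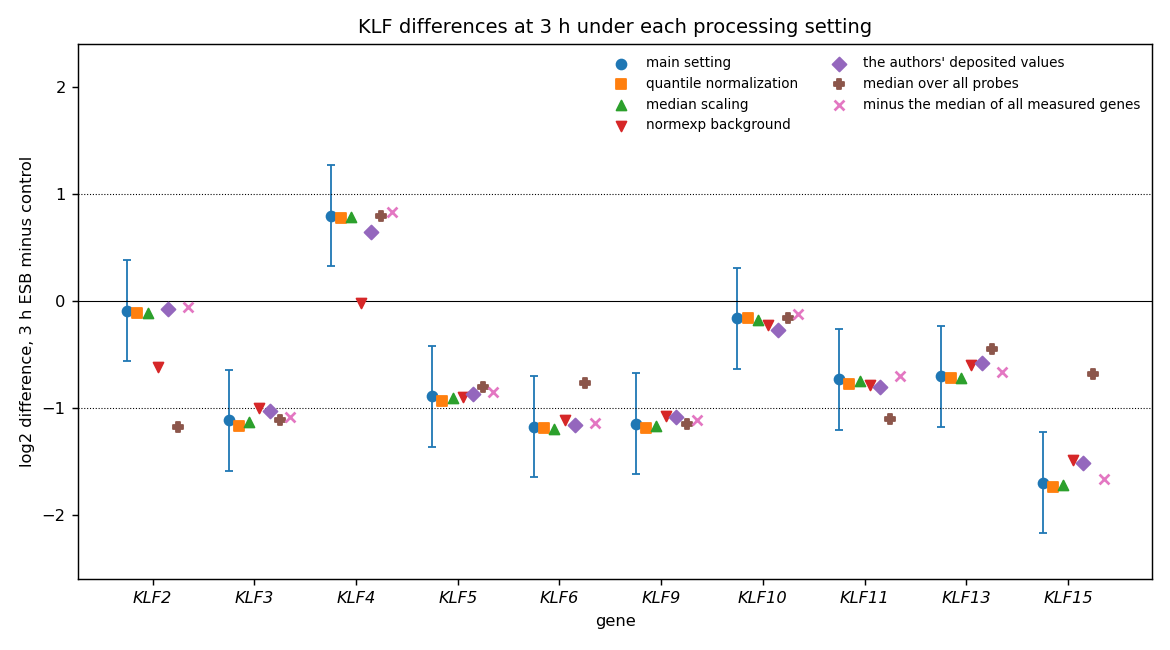
Difference of each KLF gene at 3 h (y axis, log2 of ESB minus control) under the main processing and each alternative; bars on the main value are the SD for 1 probe, and dotted lines mark 2-fold. All members but KLF4 lie below 0 under every setting, KLF2 and KLF10 by less than the SD in the main setting. KLF4 lies at 0.80 in the main setting and at -0.03 with normexp.

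A trend was tested with limma over all 6 arrays as a slope on log2(hours + 1), with control set at 0 h by assumption. The fit used all 6 levels of a gene, also those not well above background. The 6 h levels of KLF3, KLF4 and KLF5 thus entered it, though they give no measured difference. None of 13611 genes, and none of the 10 members, passed a Benjamini-Hochberg adjusted p of 0.05, a background of 0.0%. At an unadjusted p under 0.05, 537 genes had a rising slope, or 3.95%, and 811 a falling one, or 5.96%. KLF3 was the 1 member among them, with a fitted change over the series of -2.25 ± 0.93 (SE), an unadjusted p of 0.0422 and an adjusted p of 0.481 in limma. The 1 member was KLF4 with quantile normalization and KLF10 without the control array. The fitted change was negative for 5 members and positive for 5, with a median of -0.22, against 0.18 for all genes tested. Without the 6 h and 12 h arrays, limma's adjusted p was under 0.05 for 703 genes and again for no member, the smallest being 0.0644.

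The genes whose 6 log2 levels, centred on their mean, lay nearest to those of a member were sought among 10382 genes for KLF2 and KLF15, the members with the widest range among those measured on all 6 arrays. KLF3, KLF4 and KLF5 were not well above background at 6 h and were not ranked. KLF2 could be ranked only if higher at 6 h, so the filter had a part in its choice and its range. For KLF2 they were PRODH, LRWD1 and CMSS1, at root mean square distances of 0.0851, 0.0911 and 0.100. Their unscaled signals in control cells and at 6 h were 39.5 and 43.4 for PRODH, 2210 and 2730 for LRWD1, and 3950 and 3860 for CMSS1. The high scaled values of these genes, like those of KLF2, are thus those of the dim arrays. For KLF15 they were HOXD3, FAXDC2 and FRY, at 0.131, 0.195 and 0.214. KLF11 was number 79 and KLF9 number 130 in nearness to KLF15, and KLF6 was number 452. KLF13 was number 1438, KLF10 number 4906 and KLF2 number 10130, so the members ranked did not share 1 pattern. In nearness to KLF2 the other members ranked lay between number 6858 (KLF9) and number 9151 (KLF6).

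Promoter windows were found in RefSeq (GRCh38.p14) for 8 of the 10 genes, KLF5 and KLF11 having a pair each, which makes 10 windows of 300 bases. They were searched on both strands for the GC box GGGCGG and for CACCC, letters of the kind that factors of this family bind. The GC box was in 8 of 10 member windows, against 45.0% of 35116 windows in all, and CACCC was in 4 of 10, against 59.9%. The 250 bases upstream of the start are printed for the genes at least 2-fold lower at 3 h that have a window, with GC boxes in capitals on either strand.
KLF6 promoter, chr10:3785210-3785459, minus strand: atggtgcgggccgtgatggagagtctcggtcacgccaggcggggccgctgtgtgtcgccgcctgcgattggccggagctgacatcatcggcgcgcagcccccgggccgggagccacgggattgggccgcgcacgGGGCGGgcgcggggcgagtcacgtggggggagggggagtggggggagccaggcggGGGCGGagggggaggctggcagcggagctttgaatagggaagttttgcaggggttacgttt
KLF9 promoter, chr9:70414658-70414907, minus strand: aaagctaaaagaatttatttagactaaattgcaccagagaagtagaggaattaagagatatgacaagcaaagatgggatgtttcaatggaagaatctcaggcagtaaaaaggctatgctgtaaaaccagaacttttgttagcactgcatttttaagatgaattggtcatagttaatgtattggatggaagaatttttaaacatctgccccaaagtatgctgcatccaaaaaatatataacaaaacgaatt
KLF15 promoter, chr3:126357409-126357658, minus strand: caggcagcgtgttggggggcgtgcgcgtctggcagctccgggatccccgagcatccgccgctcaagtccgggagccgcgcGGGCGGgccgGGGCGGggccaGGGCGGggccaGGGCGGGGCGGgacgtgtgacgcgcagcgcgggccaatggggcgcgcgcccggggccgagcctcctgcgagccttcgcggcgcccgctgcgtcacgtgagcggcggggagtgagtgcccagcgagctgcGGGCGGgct
The KLF15 stretch holds 6 GC boxes, one pair of them overlapping, and 80.4% G or C. The KLF6 stretch holds 2 GC boxes and 72.4% G or C, and that of KLF9 holds none at 32.4% G or C. CACCC is in none of these 3 stretches. The genes that were lower together at 3 h thus include one whose window lacks both sets of letters, and a match is a description, not a binding site.

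Of the 7 other family members with a probe, 4 were measured at 1, 3 and 24 h, 2 at 6 h and 3 at 12 h. KLF16, a SIN3-binding repressor, was at least 2-fold lower at 12 h (-1.18) and 24 h (-1.54), so 1 of 3, against 7.81% of all measured genes, and 1 of 4, against 9.29%, and no other member of this list passed 2-fold at any time. KLF12, which binds CtBP as KLF3 does, was at -0.58, -0.45, -0.30 and 0.37 at 1, 3, 12 and 24 h. KLF14 was at -0.79 at 24 h.

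The related SP factors bind the same GC boxes, and 7 of 9 had a probe here. SP2 was at -2.37, -1.63 and -1.49 and SP3 at -1.70, -1.26 and -2.00 at 6, 12 and 24 h, so both were more than 2-fold lower at each. They were 2 of 4, 2 of 4 and 2 of 3 measured SP genes, against 10.0%, 7.81% and 9.29% of all measured genes. SP5 was at 1.45 and 1.21 after 6 and 12 h, so 1 of 4 was 2-fold higher, against 22.9% and 13.1%. SP1, the ubiquitous member, stayed between -0.19 and 0.15 at all 5 times. At 3 h none of the 3 measured SP genes was 2-fold apart, against 2.96% of all measured genes lower and 3.24% higher.

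Among 10 coregulators of KLF proteins, SIN3A was at -1.44, -2.36, -1.76 and -1.82 at 3, 6, 12 and 24 h. At 3 h it was the 1 gene of the 10 at least 2-fold lower, against 2.96% of all measured genes. Its relative SIN3B was at 1.24 and 1.29 after 6 and 12 h. CTBP1 was at -1.79, -1.32 and -1.24 at 6, 12 and 24 h, and CTBP2 at 1.55 at 6 h. EP300, a histone acetyltransferase, was at -2.21 and -1.13 after 12 and 24 h. In this list 3 of 10 genes were 2-fold lower at 12 h, against 7.81% of all measured genes, and 3 of 10 at 24 h, against 9.29%, and the median of the list at 24 h was -0.54, against 0.02 for all genes.

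Of 10 reported targets of the family, 9 had a probe. PCK1, the gluconeogenic enzyme that KLF15 activates, was at -0.65, -2.07, -2.45, -1.61 and -0.14 at 1, 3, 6, 12 and 24 h. It was the 1 target of 8 measured that was 2-fold lower at 3 h, against 2.96% of all measured genes. PRODH, which breaks down proline, was at 2.45 and 1.76 after 6 and 12 h, with signals of 43.4 and 72.1 there, against 39.5 in control cells. Like KLF2, PRODH lay in control cells below the lowest level well above background at 6 h. It could thus be measured at 6 h only if higher. BCAT2, which starts the breakdown of branched-chain amino acids, was at -2.01 at 12 h. The median of this list at 3 h was -0.25, against -0.04 for all genes.

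Of 5 genes of glucocorticoid signalling, 4 were measured at each time. NR3C1, the glucocorticoid receptor, was at -0.64, -0.66, -1.63, -0.67 and -0.74, and it was the 1 gene of the list 2-fold lower at 6 h. This is 1 of 4, against 10.0% of all measured genes. TAT, a hepatocyte enzyme induced by glucocorticoids, was at -1.52 at 24 h, and PER1 was at 0.80 there. Of 8 genes of transforming growth factor beta signalling none was 2-fold apart at 1 or 3 h. Of all measured genes 0.663% were 2-fold lower and 2.23% higher at 1 h, and 2.96% and 3.24% at 3 h. SMAD4, the partner shared by the receptor-activated SMADs, was at -2.43 and -1.06 after 12 and 24 h, and the inhibitor SMAD7 at -1.75 and -1.26 after 6 and 12 h.

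Of 5 kinases and MEF2 factors that act upstream of KLF2 and KLF4, 4 were measured. MEF2A was at -1.19 and -1.30 after 6 and 12 h, MAPK7 at 0.58 and 0.74, and MAP2K5 at 0.84 at 24 h. Of 5 ubiquitin ligases that act on KLF proteins, 4 had a probe and 3 were measured. FBXW7, which targets KLF2 and KLF5 for degradation, was at -0.73, -0.50, -1.25 and -0.55 after 1, 3, 6 and 12 h. After 24 h it was at least 2-fold lower, so 1 of 3, against 9.29% of all measured genes. SMURF1 was at 0.63 at 24 h and BTRC at 0.41 at 3 h.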

How the data were processed

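Gene expression was measured in HepG2 cells on 6 one-colour Agilent arrays, 1 per group. An RNeasy kit gave the RNA and a linear amplification kit of Agilent the labelled targets, per the labels' protocols. Cy5 is the dye in the labels, but the file columns are of the green channel only. The scanner files hold intensity per spot, corrected for background by the scanner software but not scaled between arrays, per the file headers. The authors' deposited table holds linear intensity. On every array it lay within 0.51 units of the spot's median signal minus its local background for all 35382 matched rows with a single spot.

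Log2 of the processed signal was averaged over the spots of a probe, and the 75th percentile of each array was subtracted. The 1639 control spots per array and 105 outlier-flagged probes were left out. Probes were named through RefSeq (names only, 23434 by accession and 3355 by symbol), which left 14211 without a name. A gene is its probe with the highest mean. For a probe not well above background, the bound is the brighter level over the higher of the dim probe's own level and the lowest level among probes well above background on that array.

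The members, gene lists and tests were chosen with earlier results of these data known. The named genes were all members, up to 3 measured genes of each list by largest difference and the 3 nearest patterns for 2 members. SP1, SIN3B and CTBP2 were named after their values were seen. A gene that the rule names is not reported here. The trend used limma 3.58.1 in R 4.3.3 on genes above background on 3 or more arrays, which leaves 4 residual degrees of freedom, and was tested on simulated data. Alternatives were quantile and median scaling, normexp background (offset 50), the authors' values, the median over probes, no filter on dim probes, other trend terms and leaving out arrays. Subtracting the median of all measured genes was added after the data were seen.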

Additional observations from a re-analysis of the deposited data

How the results depend on the processing

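Precision is limited by the number of arrays, and on the 6 h array 3 members were not well above background. Of the members' single differences under the alternatives, 263 moved by less than their error, 16 moved by more and 3 turned a 2-fold difference to the other sign. KLF15 at 6 h was 0.60 with normexp background and 0.00077 with the median over all probes, and KLF15 at 24 h was 0.024 with the median over all probes; its second probe was below background at most times. The median over all probes also gave a family median of -0.30 at 1 h and no KLF gene 2-fold higher at 12 h (0). With normexp 2 were higher at 12 h. At 24 h 0 were 2-fold higher with normexp, with the authors' values and minus the median of all measured genes. At 6 h the count of members 2-fold lower was 1 with the authors' values, 5 without the filter on dim probes and 6 minus the median of all genes, where the family median was -1.20, and -0.53 at 12 h. The share of all measured genes under these alternatives is not given here. These counts therefore cannot be set against the shares of the main setting. In the limma trend, 703 genes passed without the 6 h and 12 h arrays, and 3 members then had an unadjusted p under 0.05. That member count was 2 with the quadratic term, 0 with normexp, 0 with genes above background on all 6 arrays and 0 with no filter, and between 0 and 4 when single arrays were left out. Leaving out 24 h gave 4 (KLF2, KLF3, KLF5 and KLF6), 6 h gave 2, and 1 h, 3 h or 12 h gave 0. The share of all tested genes at an unadjusted p under 0.05 is not given for these settings, so the member counts have no background beside them. No member passed the adjusted threshold under any of these settings. The cause of these shifts was not tested. No paired analysis was possible because each group held 1 array.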
